A study of Mus musculus with 4 samples.

Results

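The surface antibody panel of the WT library holds 138 oligonucleotide-tagged antibodies, 3 isotype controls among them, out of 142 tags in the antibody features list, the other 4 being hashtags that mark single mice. The members are every tag whose name does not begin with hashtag. They were counted as UMIs (unique molecular identifiers, which count each captured molecule once) in the 23273 WT barcodes that had at least 500 gene UMIs and 200 to 2500 genes, called cell barcodes here, after a join by barcode to the WT gene expression library. The study compared WT mice with A20ZF7 mice, whose A20 protein carries point mutations in the zinc finger that binds linear ubiquitin. The cells came from the lamina propria of the proximal small intestine, after a Percoll gradient and a negative selection for T cells and ILCs, and 60000 cells were collected per genotype. The WT library is a pool of 2 mice of WT genotype, each marked with its own hashtag. The mice were 12 weeks old, as the study states for its single-cell profiling. The 3 antibody files listed for A20ZF7 were identical to those of WT, so the panel was read in WT alone and no comparison of genotypes was made.

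Antibodies that carry a DNA tag let surface protein and mRNA be read from one droplet, because the tag is captured and counted beside the cell's transcripts. T cells carry the T cell receptor with CD3 and a CD4 or CD8 coreceptor, innate lymphoid cells carry CD90 and CD127 without CD3, endothelial cells carry CD31, and cells that present antigen carry MHC class II. In such assays, antibody that never bound a cell also enters droplets, so a barcode without a cell can still hold tags, and an antibody marks a cell only where its level stands above that of such droplets.

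Tags are printed for the antibodies on which the results turn. I-A/I-E (MHC class II), CD31, CD49f and CD49a were each called higher in a non-lymphoid class below. CD90.2, CD5 and CD4 stand for lymphocytes. CD3 and CD134 are printed as antibodies that reached 1.25 times near-empty in no class, beside the 3 isotype controls. All 15 bases of a tag are read, so none is set apart in capitals.
I-A/I-E: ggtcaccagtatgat
CD31: gctgtagtatcatgt
CD49f: ttccgaggatgatct
CD49a: ccattcatttgtggc
CD90.2: ccgatcagccgttta
CD5: cagctcagtgtgttg
CD4: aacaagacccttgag
CD3: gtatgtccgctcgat
CD134: ctcacctacctatgg
IgG1 control: gccggacgacattaa
IgG2a control: ctcctacctaaactg
IgG2b control: atatgtatcacgcga
The 138 tags had a GC content of 40% to 53.3%. The smallest number of differing bases between any pair was 4, for 3 pairs (CD15 with TER119, CD103 with CD61, and CD370 with CCR8). Across antibodies, GC content and the level in near-empty barcodes had a Spearman rho of 0.181, given as a description over 138 tags of 1 library.

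The WT antibody library held UMIs in 736885 barcodes. Cell barcodes held 30.3% of the antibody UMIs, with a median of 1784 antibody UMIs (25th to 75th percentile, 1366 to 2840) and 917 gene UMIs per barcode. Barcodes just below the gene limit, with 100 to 500 gene UMIs, held a median of 1677 antibody UMIs, and those with 500 to 1000 held 1660. HTODemux, which calls hashtags, gave 4143 cell barcodes to mouse 1 and 6010 to mouse 2, while 2075 had both hashtags and 11045 neither. The separation was narrow: median UMIs of hashtags 7 and 8 were 422 and 76 in barcodes of mouse 1, and 123 and 254 in those of mouse 2. Hashtags 9 and 10 had a median of 0 UMIs in WT cell barcodes. The WT and A20ZF7 gene expression libraries shared 1264 cell barcodes, and the 38420 A20ZF7 cell barcodes held a median of 41 antibody UMIs in these files, as near-empty WT barcodes did.

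Most of the panel was at the level of near-empty barcodes. Near-empty barcodes, which hold antibody UMIs but fewer than 100 gene UMIs, took 52.1% of all antibody UMIs. Of the 541343 such barcodes, 40937 held at least 500 antibody UMIs each, with a median of 1413 antibody UMIs and 41 gene UMIs, and these took 76.8% of the near-empty antibody UMIs. Whether such barcodes hold antibody that never bound, or antibody bound to cells or fragments with little RNA, was not tested. The level of an antibody (its UMIs per 1000 antibody UMIs) was within 15% of the near-empty level for 119 of 138 antibodies, and the median ratio of both levels was 0.958. Ratios ran from 0.856 to 3.06. Levels in cell and near-empty barcodes had a Spearman rho of 0.983 across antibodies, a description only, since both come from 1 library and 1 stain.

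Antibodies to lymphoid, endothelial and stromal proteins stood above near-empty barcodes. In total, 15 of 138 reached 1.25 times the near-empty level. CD90.2, the Thy-1 glycoprotein of T cells and innate lymphoid cells, was at 5.48 per 1000 in cell barcodes (5.83 in mouse 1, 6.31 in mouse 2) against 1.79 in near-empty barcodes, or 3.06 times. CD38, an NAD-consuming ectoenzyme, was at 9.37 per 1000 in cell barcodes (10.5 in mouse 1, 10.5 in mouse 2) against 4.23 in near-empty barcodes, or 2.22 times. CD54, the adhesion molecule ICAM-1, was at 3.43 per 1000 in cell barcodes (3.33 in mouse 1, 3.34 in mouse 2) against 1.59 in near-empty barcodes, or 2.16 times. In both mice all 3 lay above the near-empty level. The rest were CD5 (1.86 times), CD73 (1.84), CD31 (1.78), Sca-1 (1.72), I-A/I-E (1.65), CD4 (1.61), CD43 (1.52), CD39 (1.52), CD45 (1.402), CD44 (1.34), CD49a (1.31) and CD55 (1.26).

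**Figure D1:**
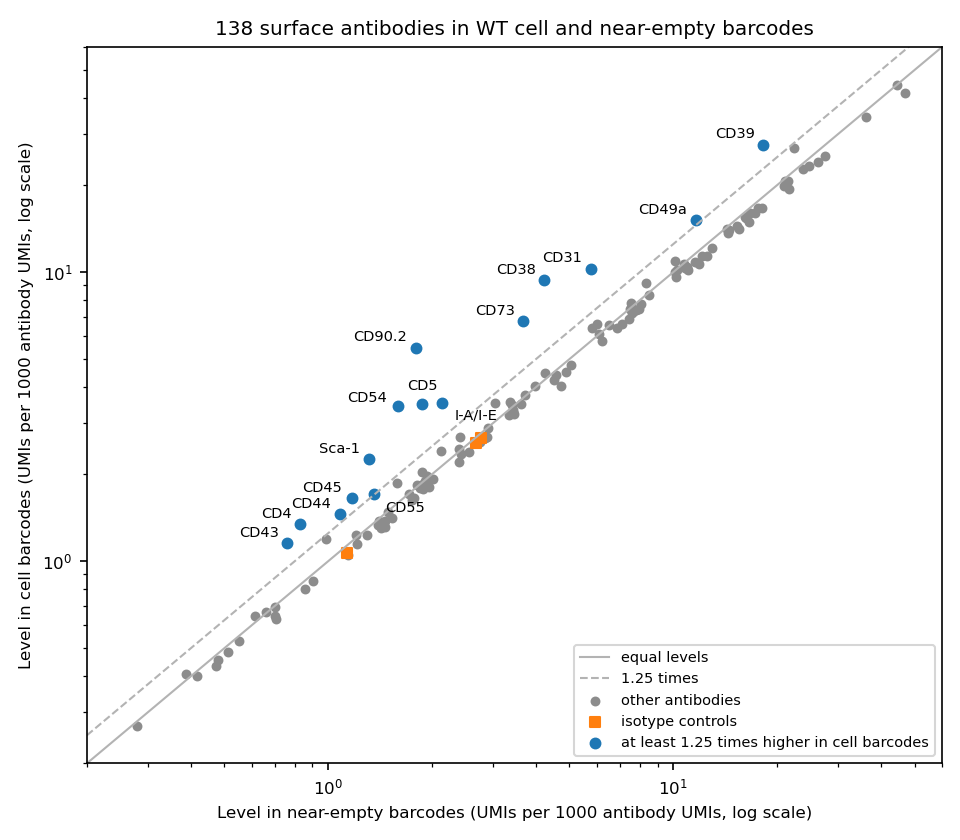
Level of each of the 138 antibodies in cell barcodes (vertical, UMIs per 1000 antibody UMIs, log scale) against near-empty barcodes (horizontal, same unit, log scale), with isotype controls as squares. Most points lie on the line of equal levels, and the 15 named antibodies lie at or above the dashed line of 1.25 times.

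A high level over all cell barcodes did not mean a level above that of near-empty barcodes. The 10 highest levels, 29.01% of antibody UMIs, were those of CD134 (44.2 per 1000), CCR2 (41.5), TIGIT (34.3), CD39 (27.6), CD49f (26.8), OX40 ligand (25.1), CD206 (23.98), CXCR3 (23.2), Mac-2 (22.7) and CD83 (20.7). Of these, CD39, an ectonucleotidase of endothelium and activated lymphocytes, was the 1 that reached 1.25 times its near-empty level. CD134, the costimulatory receptor OX40, was at 0.997 times. A value over all cell barcodes can hide a difference in a single cell type. CD49f was under 1.25 times here but was called higher in endothelial-like barcodes below. Levels of different antibodies spanned 164-fold between the highest and the lowest, and the amount of each antibody added is not given in the sources used here.

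The isotype controls, antibodies with no target in the mouse, did not separate antibodies above the near-empty level from the rest. IgG1 was at 2.57 (2.57 in mouse 1 and 2.55 in mouse 2) per 1000 in cell barcodes, IgG2a at 2.67 (2.64 in mouse 1 and 2.62 in mouse 2) and IgG2b at 1.06 (1.04 in mouse 1 and 1.07 in mouse 2). Of the 135 other antibodies, 82 lay above the highest control in cell barcodes, and 78 did so in near-empty barcodes. Conversely, 6 of the 15 antibodies that reached 1.25 times their near-empty level (CD4, CD43, CD44, CD45, CD55 and Sca-1) were below the highest control.

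The 2 mice had nearly the same profile. The level in mouse 1 over that in mouse 2 was within 1.1-fold for 137 of 138 antibodies, and ranged from 0.9104 for CD73 to 1.11 for CD45, the leukocyte phosphatase. Both mice were loaded in 1 library and share its stain, so this closeness is not a measure of the spread between animals.

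Cell barcodes were then sorted into classes by their mRNA alone, by at least 3 marker genes of 1 list and every other list at no more than 0.5 times that number. A class was given to 12391 cell barcodes (53.2%), and 2524 of these had exactly 3 own markers, the least allowed. Another 5284 barcodes had enough markers but too many of another list. The 11 classes with at least 20 barcodes in each mouse held 4848 fibroblast-like, 1363 smooth muscle-like, 999 ILC3-like, 997 ILC2-like, 778 epithelial-like, 336 plasma cell-like, 275 endothelial-like and 127 macrophage- or monocyte-like barcodes. T cell-like barcodes were split by Cd4 and Cd8a or Cd8b1 UMIs into 252 CD4, 426 CD8 and 1911 other T cells, the last mostly with no UMI of either. The median number of genes of the highest other list was 1 or 2 in each of these classes. The gene coding for the target is itself among the markers for 3 of the 15 antibodies called below (CD4, CD5 and CD31).

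Antibody UMIs were summed per class and mouse, and each class was set against the mean of the other 10 with edgeR's quasi-likelihood test. A call needed a Benjamini-Hochberg adjusted p under 0.05 over the 138 antibodies and a log2 ratio of at least 1. Of 1518 pairs of class and antibody, 21 were called higher (1.38%) and 6 lower (0.395%). The calls covered 15 antibodies, 10 of them in 1 class alone, while 123 antibodies were called higher in no class and no isotype control was among those called (edgeR). The log2 ratio was at least 1 in each mouse taken alone for 20 of the 21 pairs. The pairs were chosen by that limit in the same 2 mice, so this was likely from the start. The 2 mice are pooled in 1 library, so p-values measure the spread between hashtag-defined sums of the 2 mice and not between separate stains. That spread was estimated in 1 fit of all classes together, although it differed between them. The standard deviation over antibodies of the log2 difference between mice was 0.047 in fibroblasts, 0.187 in macrophages and monocytes and 0.203 in plasma cells. The SE and p-value of a class thus also rest on the spread in other classes.

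**Figure D2:**
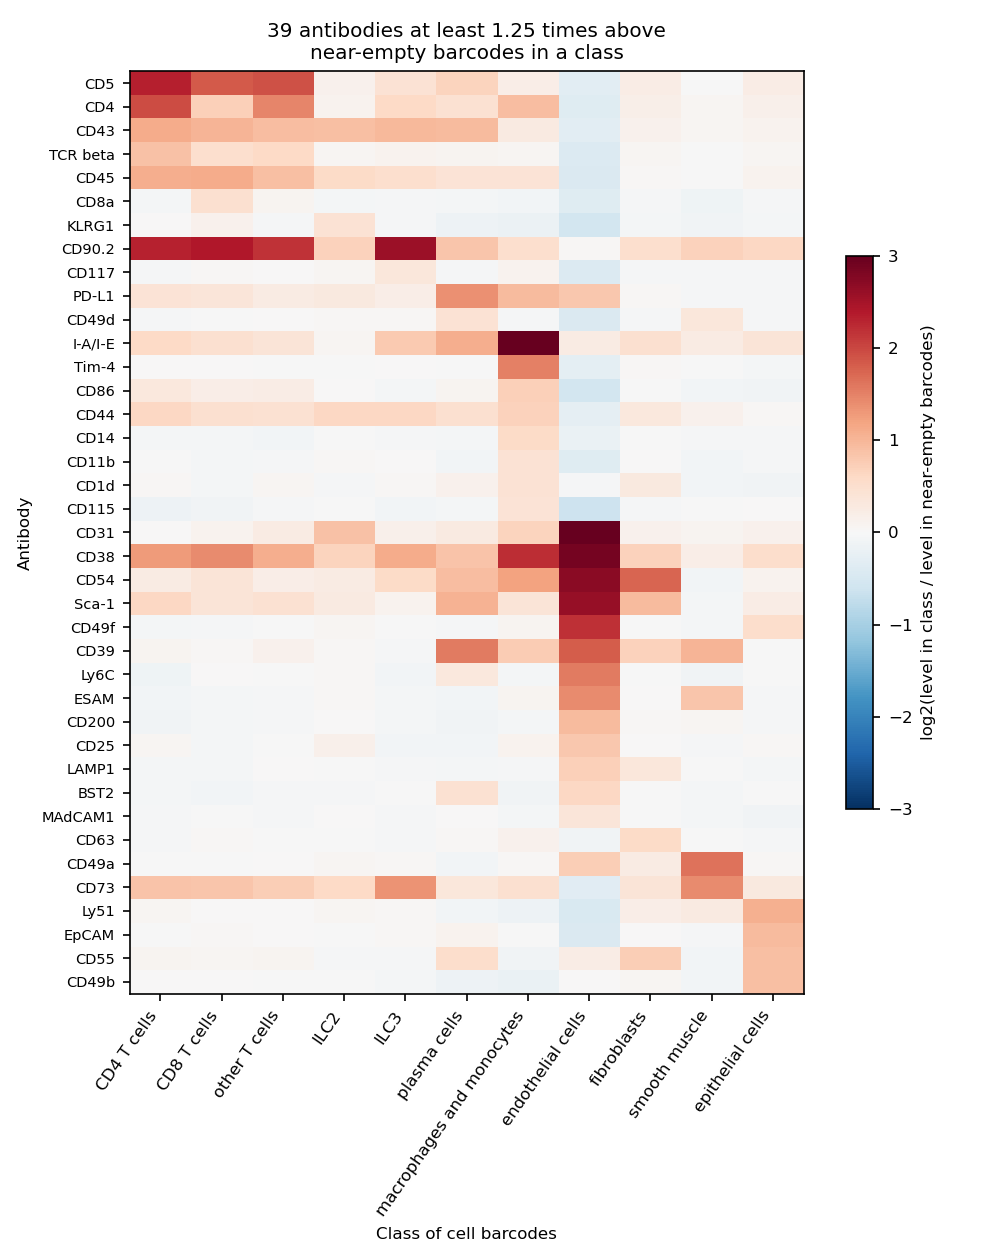
Log2 of the level in a class over the level in near-empty barcodes (colour) for the 39 antibodies that reached 1.25 times in at least 1 of the 11 classes (columns). Endothelial cells, macrophages and monocytes, and T cells with ILC3 hold the darkest cells, and the endothelial column is pale blue for most other antibodies.

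**Figure D3:**
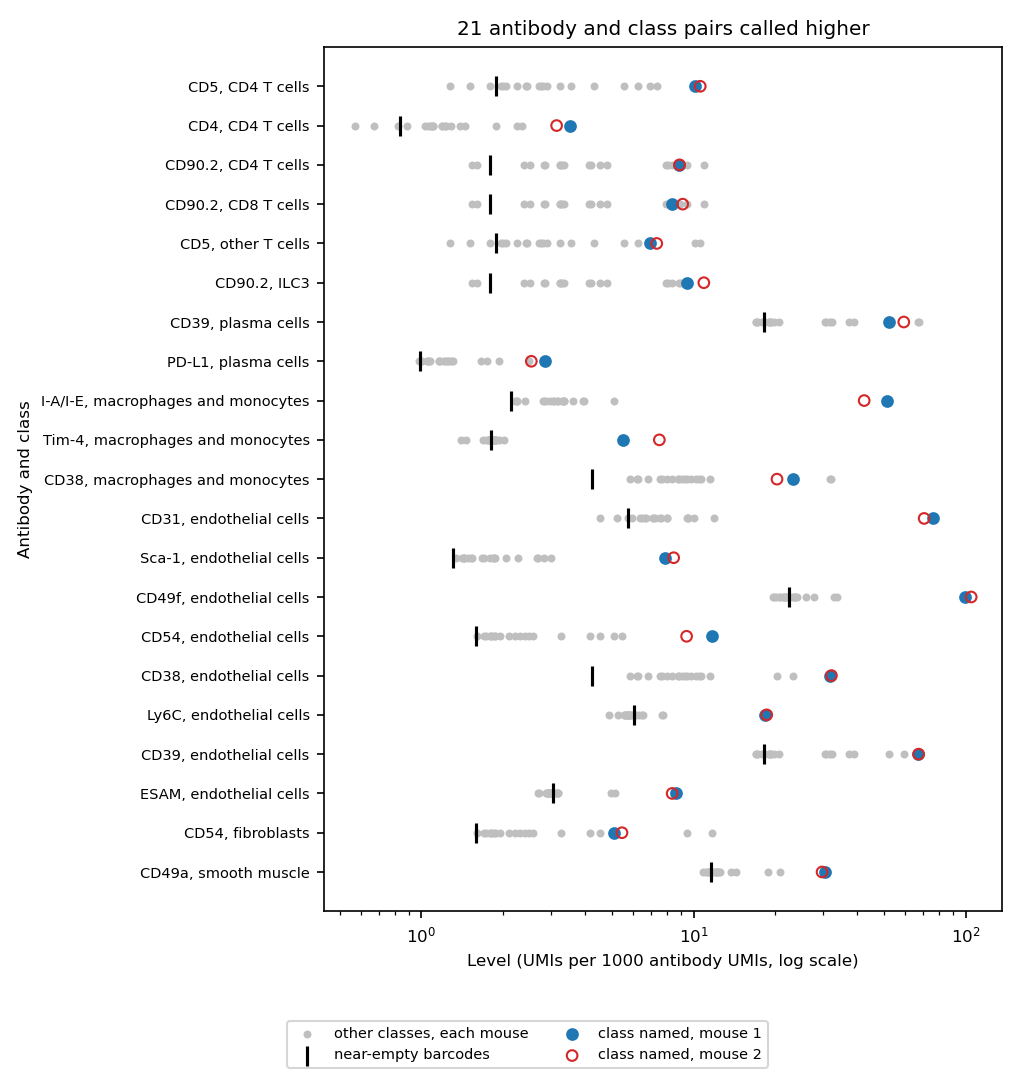
Levels (horizontal, UMIs per 1000 antibody UMIs, log scale) of the 21 pairs of antibody and class called higher, for mouse 1 (filled) and mouse 2 (open), with both mice of the other 10 classes in grey and near-empty barcodes as a bar. I-A/I-E in macrophages and monocytes and CD31 in endothelial cells lie furthest from the grey points.

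T cell-like barcodes were marked by CD5, CD90.2 and, in the CD4 class, CD4. CD5, a negative regulator of receptor signalling on T cells, was at 10.1 and 10.6 per 1000 in mouse 1 and mouse 2 in CD4 T cells (log2 ratio 1.83 ± 0.079 (SE), edgeR adjusted p = 1.76e-10). No other class and mouse passed 7.33. In other T cells CD5 was at 6.89 and 7.33 (log2 ratio 1.23 ± 0.066 (SE), edgeR adjusted p = 3.19e-09). CD4, the coreceptor for MHC class II, was at 3.52 and 3.14 in CD4 T cells (log2 ratio 1.50 ± 0.085 (SE), edgeR adjusted p = 3.37e-09). Other T cells came next for CD4 with 2.25 and 2.34, below both values. CD90.2 was at 8.81 and 8.88 in CD4 T cells (log2 ratio 1.08 ± 0.071 (SE), edgeR adjusted p = 1.13e-08) and at 8.37 and 9.12 in CD8 T cells (log2 ratio 1.06 ± 0.064 (SE), edgeR adjusted p = 1.79e-08). Calls were 3 of 138 in CD4 T cells (2.17%), 1 in CD8 T cells (0.725%) and 1 in other T cells (0.725%), and each T cell class had the other T cell classes in its comparison. With TMM scaling CD90.2 in CD8 T cells was at a log2 ratio of 0.996, with isotype control UMIs as the total and with DESeq2 at 0.998, and with hashtag UMIs in the total at 0.65, all short of a call. With the mouse called from the hashtag share it was at 0.87, also short of a call. That fit held 4 classes, so CD8 T cells were set against ILC3, fibroblasts and other T cells alone. With hashtag UMIs in the total, CD90.2 in CD4 T cells was also short of one, at 0.94.

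The antibodies to the receptor complex itself separated T cells less. CD3, the signalling complex of the T cell receptor, was at 9.49 and 9.86 per 1000 in CD4 T cells, and over the whole class at 1.13 times its near-empty level. Its gene Cd3e reached 1022 CPM (gene UMIs scaled to a common depth) in other T cells. The CD3 difference in CD4 T cells (log2 ratio 0.27 ± 0.026 (SE), edgeR adjusted p = 1.17e-06) was below the size set for a call. TCR beta chain was at 2.92 and 3.004 in CD4 T cells, 1.83 times near-empty (log2 ratio 0.78 ± 0.047 (SE), edgeR adjusted p = 6.28e-09). CD8a, the coreceptor for MHC class I, was at 2.66 and 2.58 in CD8 T cells, 1.39 times near-empty (log2 ratio 0.58 ± 0.045 (SE), edgeR adjusted p = 1.70e-07). For all 3, both mice lay above every other class, and none reached 2-fold in this fit. That order alone marks little. The antibodies to IgM (7.33 and 7.26 per 1000) and LAG3 (14.36 and 14.56) also had it, in ILC2. Neither passed its near-empty level in any class, with highest ratios of 0.978 and 0.9999. How many antibodies of the panel have this order was not counted. When at least 1000 gene UMIs were required, TCR beta chain was called in CD4 T cells (log2 ratio 1.03, edgeR adjusted p = 4.28e-08). The antibody known to bind the gamma-delta receptor was at 1.08 times near-empty in CD8 T cells, its highest class.

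Among all 2589 T cell-like barcodes, the antibody and the gene of a coreceptor moved together. In the lowest 25% by CD4 antibody level, 12 of 648 barcodes (1.85%) had a Cd4 UMI, and in the highest 25% 116 of 647 did (17.9%). For CD8a, the shares with a Cd8a or Cd8b1 UMI were 8.33% and 29.8%, and for CD5 the shares with a Cd5 UMI were 4.32% and 33.2%. CD90.2 had shares with a Thy1 UMI of 17.9% and 36.3%. CD3 did not order the barcodes in this way, with 92.4% and 92.6% holding a UMI of Cd3e, Cd3d or Cd3g, nor did TCR beta chain, with 67.6% and 68.2% holding one of Trbc1 or Trbc2. Cd5, Cd3e, Cd3d, Cd3g, Trbc1 and Trbc2 were all among the marker genes that chose these barcodes. The part of that choice in these shares was not tested. Median gene UMIs in the lowest and highest groups were 754 and 861 for CD4, 807 and 780 for CD8a, and 744 and 1036 for CD90.2, and the part of depth in these shares was not tested.

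ILC3-like barcodes carried the most CD90.2, and ILC2-like barcodes had no call. CD90.2 was at 9.46 and 10.9 per 1000 in ILC3 (log2 ratio 1.30 ± 0.059 (SE), edgeR adjusted p = 3.46e-10), where Thy1 was also highest, at 498 CPM. No other class and mouse passed 9.12, and this was the 1 call of 138 (0.725%). CD117, the stem cell factor receptor, was at 4.24 and 4.36 in ILC3, 1.26 times near-empty (log2 ratio 0.38 ± 0.032 (SE), edgeR adjusted p = 3.14e-07). CD73, an ectoenzyme that makes adenosine, was at 9.05 and 9.24, 2.53 times near-empty. In ILC2, 0 of 138 antibodies were called higher by edgeR (0%), as by DESeq2. A positive log2 ratio had an unadjusted p under 0.05 for 76 antibodies and an adjusted p under 0.05 for 73 (edgeR). The size limit thus kept these 73 from a call. The panel median log2 ratio in ILC2 was 0.077 with plain totals and -0.0026 with TMM scaling, so the count of small differences depends on the scaling. The highest log2 ratio in ILC2 was that of KLRG1, an inhibitory lectin-like receptor, at 3.95 and 4.12 per 1000 (log2 ratio 0.58 ± 0.031 (SE), edgeR adjusted p = 3.13e-09). CD90.2 was at 1.63 times near-empty in ILC2, where Thy1 was at 46.5 CPM. This was not particular to ILC2: over whole classes CD90.2 was at 2.91 per 1000 in ILC2, 2.91 in smooth muscle and 3.17 in plasma cells. CD31 was at 9.44 and 9.54 per 1000 in ILC2, 1.83 times near-empty, and Pecam1 was at 431 CPM there, second to endothelial cells.

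Some antibodies to receptors that define innate lymphoid cells in flow cytometry stayed near the near-empty level. Others stood higher: CD90.2 and CD117 in ILC3 were at 5.91 and 1.26 times near-empty, and KLRG1 in ILC2 at 1.35 times. IL-7 receptor alpha (CD127) was at 11.97 and 12.02 per 1000 in ILC3, 0.9995 times near-empty, with Il7r at 1301 CPM. The IL-23 receptor antibody was at 0.933 times near-empty in ILC3, where Il23r was at 926 CPM. The highest ratios of NK1.1 and CD335 (NKp46) over the 11 classes were 0.966 and 0.968. ILC1- or NK-like barcodes numbered 48 (14 and 18 in the 2 mice), too few for these classes, so both antibodies were not read there.

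Macrophage- and monocyte-like barcodes were set apart by MHC class II. I-A/I-E was at 51.4 and 42.4 per 1000 in mouse 1 and mouse 2 (log2 ratio 3.92 ± 0.07 (SE), edgeR adjusted p = 8.33e-16), against at most 5.12 in any other class and mouse and 2.13 in near-empty barcodes. H2-Ab1 was at 4603 CPM there and at 502 in epithelial cells, the next class. Tim-4, a phosphatidylserine receptor of resident macrophages, was at 5.52 and 7.49 (log2 ratio 1.87 ± 0.068 (SE), edgeR adjusted p = 8.13e-12), against at most 2.01 elsewhere. CD38 was at 23.2 and 20.3 (log2 ratio 1.17 ± 0.1 (SE), edgeR adjusted p = 6.34e-07), below endothelial cells alone. These were 3 calls of 138 (2.17%), in a class of 32 and 37 barcodes of the 2 mice. CD11b, an integrin of myeloid cells, was at 1.14 and 0.893, 1.35 times near-empty, and CD86, a costimulatory ligand, at 2.16 and 2.03, 1.65 times near-empty, both under the size for a call. F4/80, a macrophage adhesion receptor, was at 2.52 and 2.32, 0.861 times near-empty, with Adgre1 at 327 CPM.

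Plasma cell-like barcodes had 2 calls of 138 (1.45%). CD39 was at 52.2 and 59.3 per 1000 (log2 ratio 1.15 ± 0.033 (SE), edgeR adjusted p = 6.59e-13), below endothelial cells alone. PD-L1, the ligand of PD-1, was at 2.84 and 2.53 (log2 ratio 1.07 ± 0.051 (SE), edgeR adjusted p = 3.67e-10), with both mice above the 2.49 that no other class passed. Entpd1, which codes for CD39, was at 48.2 CPM and Cd274, which codes for PD-L1, at 64.8 CPM in this class, neither the highest among classes. CD138 (syndecan-1), an antibody in wide use for plasma cells, was at 4.78 and 4.44, 0.954 times near-empty, with Sdc1 highest in this class at 163 CPM.

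Endothelial-like barcodes had the most calls, 8 of 138 (5.8%). CD31, a junctional adhesion molecule of endothelium, was at 75.7 and 70.4 per 1000 in mouse 1 and mouse 2, where no other class passed 11.9 (log2 ratio 3.30 ± 0.13 (SE), edgeR adjusted p = 3.88e-12). Sca-1, a surface protein of the Ly6 family, was at 7.85 and 8.45 (log2 ratio 2.16 ± 0.043 (SE), edgeR adjusted p = 3.28e-15). The laminin-binding integrin chain CD49f was at 99.7 and 105 (log2 ratio 2.14 ± 0.058 (SE), edgeR adjusted p = 5.13e-14). For each of these, both mice lay above all other classes. CD54 was at 11.7 and 9.43 (log2 ratio 2.11 ± 0.095 (SE), edgeR adjusted p = 1.49e-11), and CD38 at 31.7 and 32.1 (log2 ratio 1.78 ± 0.081 (SE), edgeR adjusted p = 1.54e-11). Ly6C, CD39 and ESAM, a tight junction protein of endothelium, followed with log2 ratios of 1.63, 1.44 and 1.43. Of the genes for Ly6C, Ly6c1 was at 2099 CPM in endothelial cells, while Ly6c2 was at 5.87 CPM there and at 445 CPM in plasma cells.

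Endothelial-like barcodes also held more antibody in all, a median of 3672 UMIs against 1558 to 2165 in the other 10 classes. Since levels are shares of a total, the panel median ratio to near-empty was 0.744 in this class, against 0.923 to 0.985 in the others, and the panel median of the log2 ratio was -0.42. All 6 antibodies called lower (CD90.2, CD5, CD4, CD73, CD43 and CD45) were called in endothelial cells. With TMM scaling, which sets the panel median near 0, CD90.2 alone was called lower (log2 ratio -1.26), and the share of calls that were higher went from 77.8% to 96%. That share was 91.3% with isotype control UMIs and 87.5% with hashtag UMIs in the total. BST2, CD200, CD25, CD49a and LAMP1 were also called higher in endothelial cells with TMM. In UMIs per barcode above the scaled near-empty profile, CD49f was at 444, CD31 at 343, CD39 at 263 and CD38 at 144 in endothelial cells.

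Fibroblast-, smooth muscle- and epithelial-like barcodes had 1, 1 and 0 calls of 138 (0.725%, 0.725% and 0%). In fibroblasts CD54 was at 5.08 and 5.46 per 1000, 3.38 times near-empty (log2 ratio 1.01 ± 0.095 (SE), edgeR adjusted p = 1.17e-06), but its log2 ratio was short of a call under 6 alternatives: 0.96 with TMM, with DESeq2, with barcodes with both hashtags or many mitochondrial UMIs removed, and with at least 4 own markers, 0.97 with isotype control UMIs as the total, and 0.81 with the mouse called from the hashtag share. The fit by hashtag share set fibroblasts against CD8 T cells, ILC3 and other T cells alone. CD55, a regulator of complement, was at 1.67 times near-empty in fibroblasts and 1.88 times in epithelial cells, and the tetraspanin CD63 was highest in fibroblasts, at 1.49 times. In smooth muscle CD49a, the collagen-binding integrin alpha 1 chain, was at 30.5 and 29.7 (log2 ratio 1.26 ± 0.025 (SE), edgeR adjusted p = 4.42e-15), and no other class passed 20.8. CD73 was at 8.58 and 9.86 and ESAM at 5.15 and 4.99 in smooth muscle, 2.67 and 1.79 times near-empty. In epithelial cells EpCAM, an epithelial adhesion molecule, was at 13.1 and 15.6 (log2 ratio 0.94 ± 0.05 (SE), edgeR adjusted p = 2.49e-09). The aminopeptidase Ly51 was at 13.2 and 16.1 and the integrin CD49b at 5.34 and 6.44, with log2 ratios of 0.81 and 0.84. For all 3, both mice lay above every other class, an order that CD134 in ILC2 also had. By edgeR or DESeq2, 0 antibodies were called in epithelial cells. A positive log2 ratio had an unadjusted p under 0.05 for 25 antibodies and an adjusted p under 0.05 for 14 (edgeR), all under the size limit. EpCAM was called when 1000 gene UMIs were required (log2 ratio 1.07) and when barcodes with both hashtags or many mitochondrial UMIs were removed (1.15). It was also called with hashtag UMIs in the total (1.01) and with at least 4 own markers (1.02). CD49b was called with barcodes with both hashtags or many mitochondrial UMIs removed (1.02).

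By group of targets, the highest ratio to near-empty over the 11 classes reached 2 for 19 of 138 antibodies, lay between 1.25 and 2 for 20 and stayed below 1.25 for 99, with a median of 1.04. In the T cell receptor and coreceptor group, 2 of 7 reached 2 and 2 more reached 1.25. Of the 15 endothelial, stromal and epithelial antibodies, 4 reached 2 and 3 more reached 1.25. Of the 14 to adhesion and homing molecules 3 reached 2, of the 22 to activation and checkpoint molecules 4, of the 35 myeloid and dendritic antibodies 3, and of the 8 to broad leukocyte molecules and alleles 3. The highest ratio of CD11c, an integrin of dendritic cells, was 1.14. None of the 12 B cell antibodies reached 1.25, in a library with 8 B cell-like barcodes, and none of the 9 to V regions of the T cell receptor did. Among NK and ILC receptors 2 of 9 reached 1.25 (CD49b and KLRG1), and among mast cell and basophil antibodies 3 of 4 did (LAMP1, CD63 and CD117), in classes other than mast cells, of which there were 8 barcodes.

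Antibodies to the same protein differed in how far they stood above near-empty barcodes. CD45 was at 2.17 times near-empty in CD8 T cells and 2.12 times in CD4 T cells, whereas CD45.2, an allele-specific antibody to the same protein, was at 1.12 and 1.08 times. In UMIs per barcode above the scaled near-empty profile, CD45 and CD45.2 were at 3.33 and 3.72 in CD8 T cells. The near-empty level of CD45.2 was 10.3 per 1000, against 1.18 for CD45, so a like number of UMIs gave a smaller ratio. CD45.1, the antibody to the other allele, had a highest ratio of 0.979 over the classes, at a level of 12.1 per 1000 in cell barcodes. CD90.2 reached 5.91 times, and a second antibody listed as CD90 without an allele reached 1.05 times, both in ILC3. As its name gives no allele, it is not certain that this second antibody binds the CD90 of these mice. The highest ratio of B220 (CD45R), a CD45 isoform of B cells, was 0.995.

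Antibody and coding gene were then compared across the 11 classes for the 123 antibodies with a named gene. The class with the highest antibody ratio and that with the highest CPM of the gene were the same, the 3 T cell classes taken as 1, for 14 of 19 antibodies whose ratio reached 2 (73.7%) and for 16 of 20 between 1.25 and 2. Among the 84 that stayed below 1.25, they were the same for 28 (33.3%). The genes of 36 antibodies are in the lists that sorted the barcodes, so the class in which such a gene is highest was set by the sorting. As the 11 classes are unequal in depth and share 1 library, these shares are a description. The exceptions with a ratio above 2 were CD49a, CD73, PD-L1, CD43 and, with Ly6c2 taken as its gene, Ly6C. By its other gene, Ly6c1, Ly6C would not be an exception, since antibody and gene were both highest in endothelial cells. CD73 was highest in smooth muscle (Nt5e at 22.9 CPM) and Nt5e in ILC3 (161 CPM). CD49b was 1.88 times near-empty in epithelial cells, where Itga2 was at 2.86 CPM. In the other direction, 48 antibodies had a gene of at least 100 CPM in some class and no class at 1.25 times near-empty. P-selectin, a leukocyte-rolling receptor (Selp at 1691 CPM in endothelial cells), was at 1.12 times there, above the panel median of 0.744 in that class. CD83, a maturation marker of antigen-presenting cells (Cd83 at 1396 CPM in macrophages and monocytes), was at 0.887 times, and Flk-1, a VEGF receptor (Kdr at 561 CPM in endothelial cells), at 0.794 times, with a log2 ratio of 0.16 under TMM scaling (edgeR adjusted p = 4.46e-05). Under that scaling the isotype controls IgG1, IgG2b and IgG2a had log2 ratios of 0.31, 0.16 and -0.078 in endothelial cells. Flk-1 was thus not above IgG1 or IgG2b there.

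**Figure D4:**
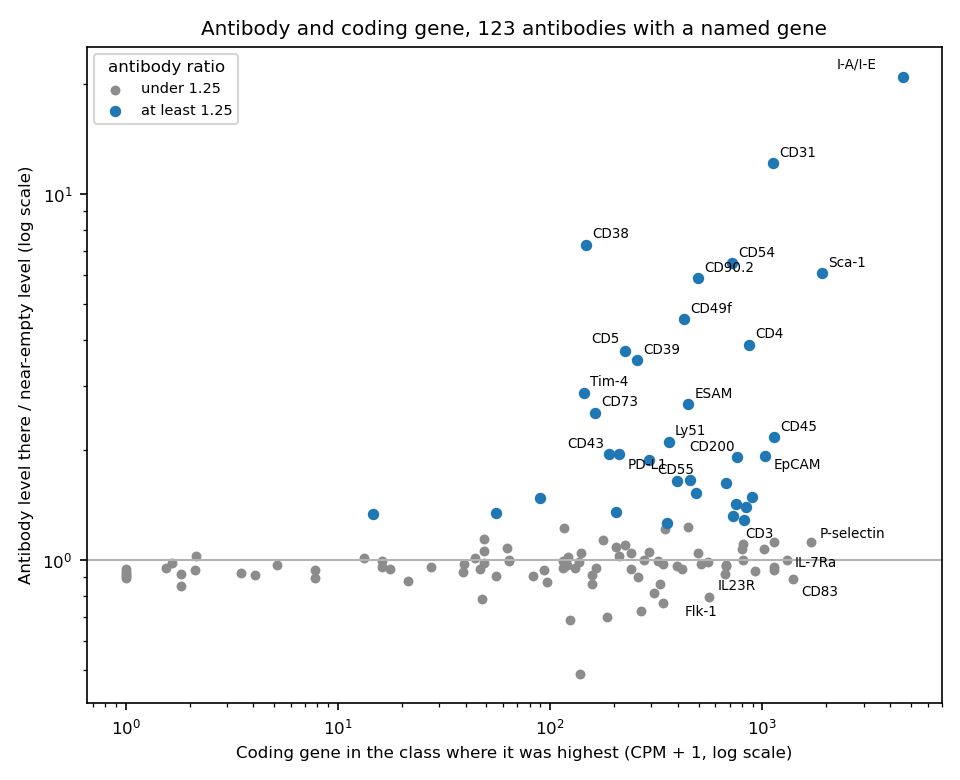
Ratio of antibody level to near-empty level (vertical, log scale) in the class where the coding gene was highest, against the CPM of the gene in that class plus 1 (horizontal, log scale), for 123 antibodies. Points at 1.25 or more (blue) rise to I-A/I-E at 20.9, while many genes above 100 CPM have an antibody on the line at 1, IL-7Ra and CD3 among them.

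Without classes, antibody levels were compared between cell barcodes with and without a UMI of the coding gene, for the 96 antibodies with 1 known gene and at least 50 such barcodes. The median ratio was 1.06, 55 ratios lay between 0.9 and 1.1, 25 reached 1.25, and 24 of them did so in both mice. The 5 largest ratios were those of CD31 (3.66, with 3.93 and 3.18 in the 2 mice), CD5 (3.18, with 2.599 and 2.88 in the 2 mice), CD49f (2.75, with 2.76 and 3.04 in the 2 mice), CD4 (2.26, with 2.05 and 2.103 in the 2 mice) and Sca-1 (2.21, with 2.602 and 2.26 in the 2 mice). The 5 smallest were CD300LG (0.839), Flk-1 (0.8599), CD93 (0.876), Fas (0.885) and CXCR5 (0.918). Of those, CD300LG, Flk-1, CD93 and Fas had coding genes highest in endothelial cells, the class where the panel median was 0.744. Barcodes with a UMI of the gene were deeper, with median gene UMIs of 1140 against 897 for Pecam1 and 2867 against 904 for Enpep, and the part of depth in these ratios was not tested.

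Within single classes, 516 pairs of class and antibody had at least 20 barcodes with and 20 without a UMI of the gene. The median ratio was 1.03, 345 lay between 0.9 and 1.1, and 83 reached 1.25. In endothelial cells, CD54 was at 15.3 per 1000 in 86 barcodes with an Icam1 UMI and at 6.98 in 189 without (2.19 times, with 2.27 and 1.94 in the 2 mice). MAdCAM-1, the venular ligand of the gut-homing integrin, was at 3.16 per 1000 in 88 barcodes with a Madcam1 UMI and at 1.92 in 187 without (1.65 times, with 1.53 and 1.66 in the 2 mice) in the same class. P-selectin with a Selp UMI stood at 1.399 times (1.44 and 1.44 in the mice) its level without one. Over the whole endothelial class, MAdCAM-1 and P-selectin were at 1.29 and 1.12 times near-empty, where the panel median was 0.744. With TMM scaling their log2 ratios were 0.78 (edgeR adjusted p = 9.38e-13) and 0.59 (edgeR adjusted p = 6.29e-11), below the size set for a call. In smooth muscle, CD73 was at 50.6 per 1000 in 31 barcodes with an Nt5e UMI and at 8.68 in 1332 without (5.83 times, with 5.899 and 4.096 in the 2 mice), where the mice had 3 and 6 such barcodes. In fibroblasts, the ratio was 1.44 times (1.69 and 1.32 in the mice) for Sca-1 with a Ly6a UMI and 1.42 times (1.61 and 1.64 in the mice) for CD55 with a Cd55 UMI. In ILC3, IL-7 receptor alpha was at 12.1 with and 12.1 without an Il7r UMI.

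Levels were broad within classes. The 10th to 90th percentile of I-A/I-E over macrophage- and monocyte-like barcodes was 13.9 to 78.7 per 1000, against 0 to 4.07 in near-empty barcodes with at least 500 antibody UMIs. For CD31 in endothelial cells it was 25.04 to 104 against 2.02 to 7.17, and for CD90.2 in ILC3 4.73 to 21.6 against 0 to 2.87. These 3 pairs of ranges, given as examples from the pairs called higher, did not overlap. How many antibodies of the panel separate in this way was not counted. CD3 in CD4 T cells had a median of 9.45 against 8.32, with ranges that overlapped. CD73 in smooth muscle had a median of 3.64, near the 2.95 of near-empty barcodes, but a 90th percentile of 27.1, so its class mean rested on few barcodes.

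**Figure D5:**
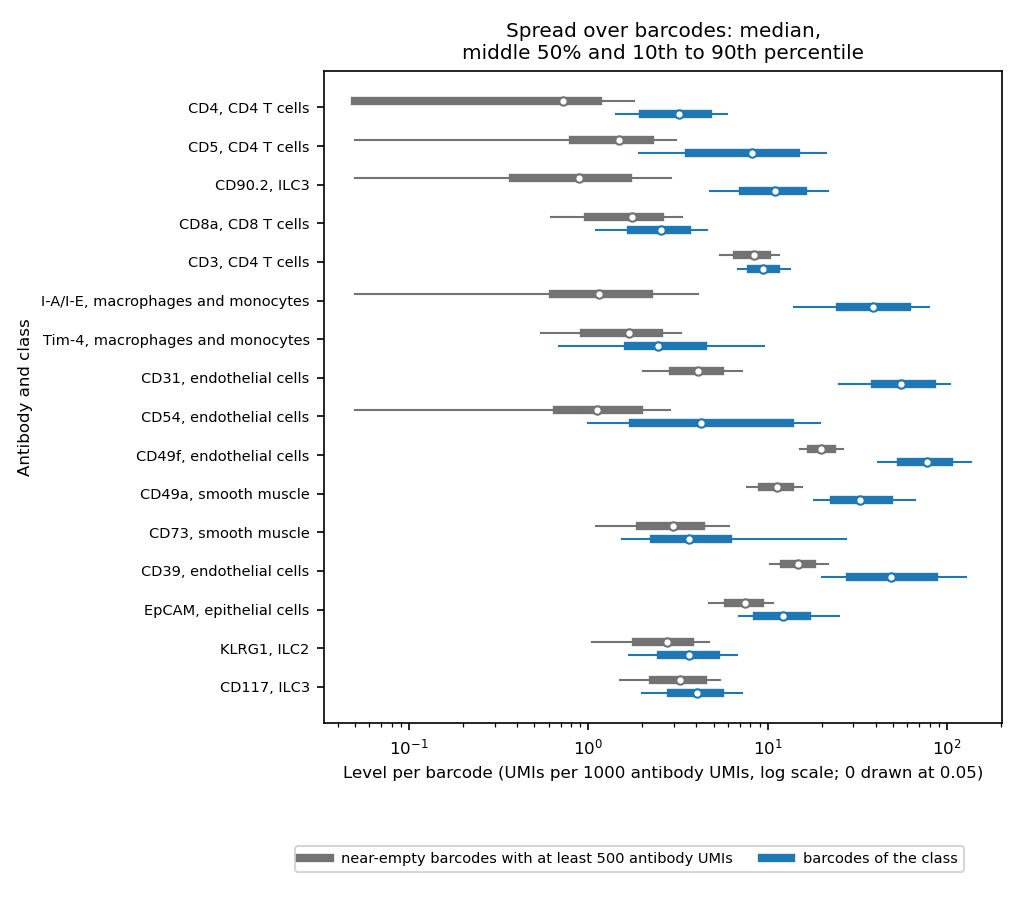
Level per barcode (horizontal, UMIs per 1000 antibody UMIs, log scale) for 16 antibodies in the class where each was highest (blue) and in near-empty barcodes with at least 500 antibody UMIs (grey): median (circle), 25th to 75th percentile (thick) and 10th to 90th percentile (thin). I-A/I-E, CD31, CD90.2 and CD49f separate, CD3, CD117 and KLRG1 overlap, and CD73 has a long upper range.

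A limit at the 99th percentile of those near-empty barcodes gave the share of a class that stood above them, with exact 95% binomial intervals that cover counting error only. I-A/I-E passed its limit in 112 of 127 macrophage- and monocyte-like barcodes (88.2%, 81.3 to 93.2). CD31 did in 218 of 275 endothelial-like barcodes (79.3%, 73.996 to 83.9), and CD49a in 1044 of 1363 smooth muscle-like barcodes (76.6%, 74.3 to 78.8). These shares count all barcodes of a class, those without a hashtag included. In the barcodes of mouse 1 and mouse 2, I-A/I-E passed in 93.8% and 81.1%, CD31 in 89.3% and 84.7%, and CD49a in 65.1% and 66.2%. CD5 passed in 130 of 252 CD4 T cells (51.6%), CD90.2 in 489 of 999 ILC3 (48.9%, 45.8 to 52.1), and CD4 in 119 of 252 CD4 T cells (47.2%, 40.9 to 53.6) and 559 of 1911 other T cells (29.3%, 27.2 to 31.3). Ly51 passed in 60.9% of epithelial cells (31.3% in mouse 1 and 47.9% in mouse 2), a class in which 80.2% of barcodes had no hashtag. EpCAM passed in 33.3% of them (26.9% and 30.1% in the mice), and CD54 in 36.8% of fibroblasts (34.3% and 37.3%). Tim-4 passed in 26 of 127 macrophages and monocytes (20.5%, 13.8 to 28.5, with 31.2% and 24.3% in the mice) and CD73 in 168 of 1363 smooth muscle barcodes (12.3%, 10.6 to 14.2). CD3 passed in 5.95% of CD4 T cells and CD8a in 5.16% of CD8 T cells, against the 1% that the limit leaves in near-empty barcodes.

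Antibodies to V regions of the T cell receptor did not single out barcodes by V gene. The panel's names have lost the Greek letters, so the chain meant is not certain for most of the 9. The antibody listed as TCRV8.1, known to bind the products of Trbv13-3 and Trbv13-2, was at 8.33 per 1000 with a Trbv13-3 UMI (29 barcodes) and at 7.87 with a Trbv13-2 UMI (71 barcodes), against 7.52 without the UMI in each comparison. Over all 17 V genes found in at least 20 T cell-like barcodes, the highest ratio of any of the 9 was 1.27, for 1 of the antibodies listed as TCRV8.3 with Trdv4. The same 33 barcodes with a Trdv4 UMI gave the highest ratio for 7 of the 9 antibodies. They held 1678 UMIs of TCRV8.1, against 1270 in the 71 barcodes with a Trbv13-2 UMI, and so held more antibody per barcode. Whether a few barcodes with many antibody UMIs set these pooled levels was not tested. No test was made.

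The fit used barcodes that could be given to a mouse, 4646 of the 12312 in the 11 classes, and hashtag calls were unequal between classes. No hashtag was called for 80.2% of epithelial-, 79.8% of smooth muscle- and 70.1% of fibroblast-like barcodes, but for 9.39% of CD8 T cells. CD90.2 in ILC3 was at 6.63 times near-empty without a hashtag and 5.75 times with one, CD4 in CD4 T cells at 3.68 and 3.98, I-A/I-E in macrophages and monocytes at 23.2 and 21.9, and EpCAM in epithelial cells at 1.97 and 1.896. Tim-4 in macrophages and monocytes differed more, at 1.37 times in 46 barcodes without a hashtag and 3.64 with one, as did CD31 in endothelial cells, at 7.53 and 12.6 times. Lymphocyte antibodies also shifted in other classes. The level of CD90.2 in epithelial cells was 2.77 over the class, but 4.22 and 4.79 in the mice. CD5 there was at 2.18, against 3.55 and 2.89 in the mice. In endothelial cells CD90.2 went the other way, at 1.85 against 1.53 and 1.6, as it did in macrophages and monocytes. Such classes are in the mean against which T cells and ILC3 were set. Those fitted ratios thus describe barcodes given to a mouse, not whole classes. The part of the hashtag call in these values was not tested.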

How the data were processed

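Gene and surface antibody libraries were made from lamina propria cells of 2 pooled WT mice with a 10x Genomics 5′ kit. The authors made UMI counts per gene or tag and barcode with Cell Ranger 7.1 and mm10, and the deposited count matrices hold all barcodes, with no cell filter. How the 138 antibodies were stained, diluted and washed is not given in the sources used here. The authors used R 4.3.3 and Seurat 4.3 after counting.

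Sums and levels were computed in Python 3.11.15 (pandas 2.3.3, numpy 2.4.6, scipy 1.17.1; figures with matplotlib 3.10.9). HTODemux (Seurat 5.3.0, quantile 0.99) called hashtags. Doublets and barcodes with over 15% mitochondrial UMIs stayed in and were removed as an alternative. edgeR 4.0.16 (R 4.3.3) fitted sums per class and mouse, with the mouse as a block and plain totals, and DESeq2 1.42.0 was an alternative. Sums with the same number come from the same animal. Their deviations between classes had a median correlation of 0.0406 over 55 pairs (from -0.13 to 0.35). The smallest of the 22 sums held 103001 UMIs, and the lowest count of an antibody in a sum was 29. In simulated sums with 20 of 138 antibodies raised 4-fold in 1 class, all were called in each of the 11 classes (the fitted log2 ratio was below the simulated one, as the raised antibodies also raise the total) and no unchanged antibody was. With 2.5-fold, 0% (smooth muscle) to 100% were called. Apart from the raised antibodies, the simulated classes shared 1 profile and 1 spread per antibody, whereas the real classes differed in both. These shares are thus not error rates of the real fit. Named antibodies are the 5 with the largest log2 ratio per class among calls, the isotype controls, the 10 highest levels, allele antibodies, a list of lineage antibodies (1 of them not reported here), the 5 largest and smallest ratios by UMI of the coding gene, and V region antibodies. Others were named after their values were seen. The panel, the marker lists and the antibody groups were chosen with earlier results of these data known, and the class rule was set after the data were seen. Alternatives changed the scaling, the tool, the filters, the mouse call and the class rule.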

Additional observations from a re-analysis of the deposited data

How the results depend on the processing

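The number of class and antibody pairs called higher was 21, and 21 to 24 under TMM factors, isotype control UMIs or hashtag UMIs in the total, DESeq2, no replicate block, the removal of barcodes with both hashtags or over 15% mitochondrial UMIs, at least 1000 gene UMIs, and at least 4 own markers (the last chosen after the data were seen). Without the replicate block the count was 21, and all 21 calls were shared with the blocked fit. With the mouse called from a 90% share of its hashtag UMIs, 1 pair was called higher and 2 lower, in a fit of 4 classes and 461 barcodes, where the 4 calls of those classes were lost (CD5 in other T cells, adjusted p = 0.0965 by edgeR). A class was there set against the others of these 4 alone, so the comparison group changed together with the mouse call. Calls lower numbered 6, against 1 with TMM and with DESeq2, 2 with isotype control UMIs, 3 with hashtag UMIs in the total and 10 with at least 1000 gene UMIs. CD90.2 in CD8 T cells and CD54 in fibroblasts were under the 2-fold limit with TMM (log2 ratios 0.996 and 0.96), isotype control UMIs, DESeq2 and the hashtag share. Of 232 values of the 21 pairs under all alternatives none changed direction, and 14 lost the call. The filter on low counts removed no antibody, so 21 of these values could not differ. The values from a single mouse, 21 for each mouse, carry no test and could not lose a call. As the pairs were chosen by a log2 ratio of at least 1 in the same counts, a change of direction was unlikely from the start. Antibodies above the highest isotype control numbered 81 to 83, those at 1.25 times near-empty 14 to 17, and those at 1.25 times by UMI of the coding gene 25 to 26. The mice agreed within 1.1-fold for 119 antibodies with the mouse called by hashtag share and for 135 with at least 1000 gene UMIs. With each mouse left out, 23 (mouse 2 alone) and 22 (mouse 1 alone) pairs had a log2 ratio of at least 1, with no test, since 1 sum per class leaves no residual degrees of freedom. At least 1000 gene UMIs left too few macrophages and monocytes for the fit. The lowest count of an antibody in a sum was 29.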
